A study of Mus musculus with 4 samples.

Results

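The 10 genes described here, Siglech, Tcf4, Spib, Runx2, Ccr9, Pacsin1, Lair1, Cd300c, Tlr7 and Tlr9, are transcribed in plasmacytoid dendritic cells (pDCs). They were chosen by name, and each symbol was found as a row of the deposited read counts, 10 of 23366 gene symbols. The counts come from medullary thymic epithelial cells (mTECs) of wild-type C57BL/6 mice aged 6 to 8 weeks, sorted as PI- CD45- MHCII+ Ly51low cells, with no treatment. Each library was made from a pool of 10 mice, and there were 2 female and 2 male pools. The study compared male with female mTECs, because sex differences in Aire and in self antigens were its question. Aire is the regulator through which mTECs transcribe genes of other tissues. Reads counted on genes ranged from 1976272 to 7103627 per pool, and the 10 genes together took 0.0285% to 0.0616% of them. No member had a count of 0 in any pool, and all 10 passed the filter on low counts.

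pDCs are dendritic cells that resemble lymphocytes in shape and make large amounts of type I interferon when endosomal receptors meet viral or self nucleic acids. Their identity is held by the E protein E2-2, which Tcf4 encodes, together with Spi-B and Runx2. In the thymus they lie mainly in the medulla, where they present antigen to developing T cells. Many pDC genes are shared with other cells. B cells also use Tcf4, Spib, Tlr7 and Tlr9, thymocytes use Ccr9, macrophages use Lair1 and Tlr7, and Spib is transcribed by mTECs themselves. Siglech is the member that is closest to a defining gene of mouse pDCs.

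Transcripts of the pDC genes were present in every pool although the gate was CD45-. Ptprc, which encodes CD45, had 280 and 180 normalized CPM in female pools 1 and 2, and male pools 1 and 2 had 304 and 219. Below, the values of pool 1 and pool 2 are given in this order. Normalized CPM are counts scaled to library size (CPM) after TMM scaling, which corrects each library for its composition. Siglech, a sialic acid-binding receptor of pDCs, had 100 and 70.8 normalized CPM in females against 101 and 70.1 in males, from 143 to 843 counts. Klk1, a kallikrein, and Cox6a2, a cytochrome c oxidase subunit, are further genes that mark mouse pDCs. They were picked from 24 such genes after their values were seen. Klk1 had 75.6 and 50.5 normalized CPM in females against 52.9 and 71.2 in males, and Cox6a2 31.8 and 49.98 against 24.5 and 92.8. Siglech was lower in pool 2 of both sexes, Klk1 in females only, and Cox6a2 in neither. Which cells these transcripts came from was not tested. Of the 12 mTEC genes listed, Spint2 had 226 to 348 in the same pools, Krt8 43.2 to 128, Epcam 37.0 to 51.6 and Aire 19.3 to 31.7. Epcam and Aire were picked after their values were seen. Lower genes of this list included Fezf2 (4.35 to 16.8), Krt14 (7.07 to 13.9), Krt5 (2.72 to 13.5) and Cldn3 (1.09 to 11.9). In whole pools of cells, fewer cells of a type and less RNA per cell cannot be told apart.

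**Figure D1:**
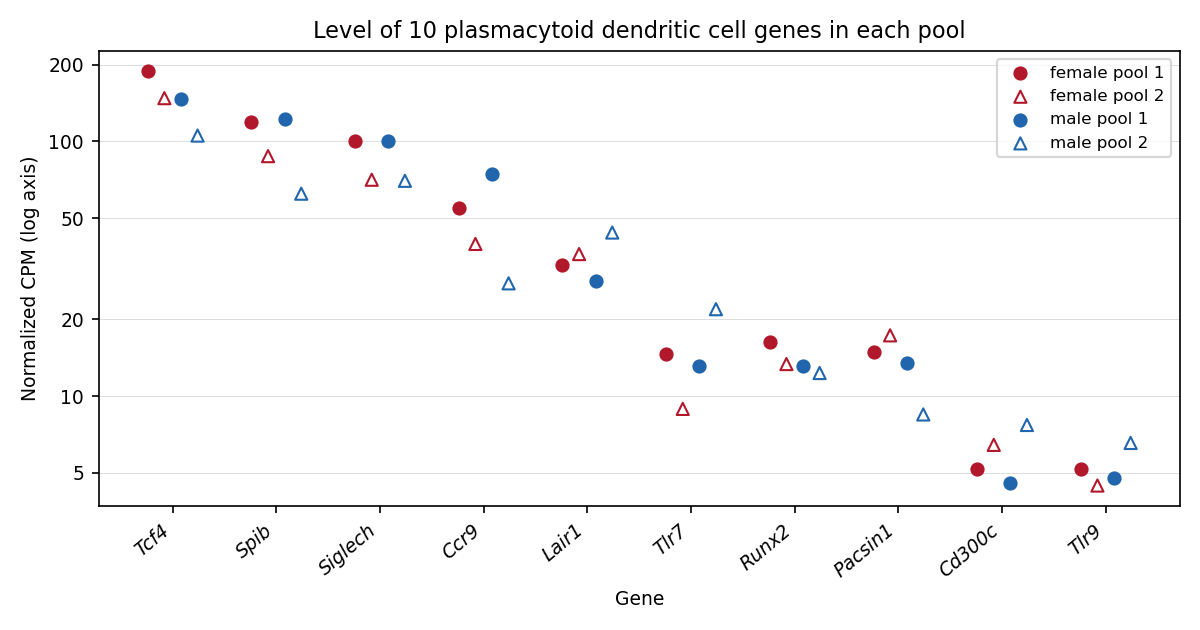
Normalized CPM (vertical axis, log scale) of each member gene (horizontal axis) in the 4 pools. Red marks female and blue male pools, filled circles pool 1 and open triangles pool 2, each point being 1 library. Tcf4 is highest, between 106 and 188, and Tlr9 lowest, between 4.45 and 6.55.

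To order the members by level, normalized CPM were divided by the exonic length annotated for each gene in NCBIM37, the assembly also called mm9. Spib came first with a mean of 34.5 normalized CPM per kb, followed by Siglech with 25.3, Ccr9 with 15.3 and Tcf4 with 12.0. Lair1 had 9.34 and Cd300c 8.59 on this scale. The lower members were Tlr7 with 3.59, Pacsin1 with 2.78, Runx2 with 1.56 and Tlr9 with 1.51 normalized CPM per kb. Neighbours in this order overlapped in their range over the 4 pools, except that every pool of Cd300c (6.54 to 11.1) lay above every pool of Tlr7 (2.18 to 5.38). The value of Cd300c rests on a gene model of 694 bases, almost all coding, so a longer transcript would lower it. Tcf4, with 12250 exonic bases, has many isoforms, and its value per kb is low if only some of the annotated exons are used.

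**Figure D2:**
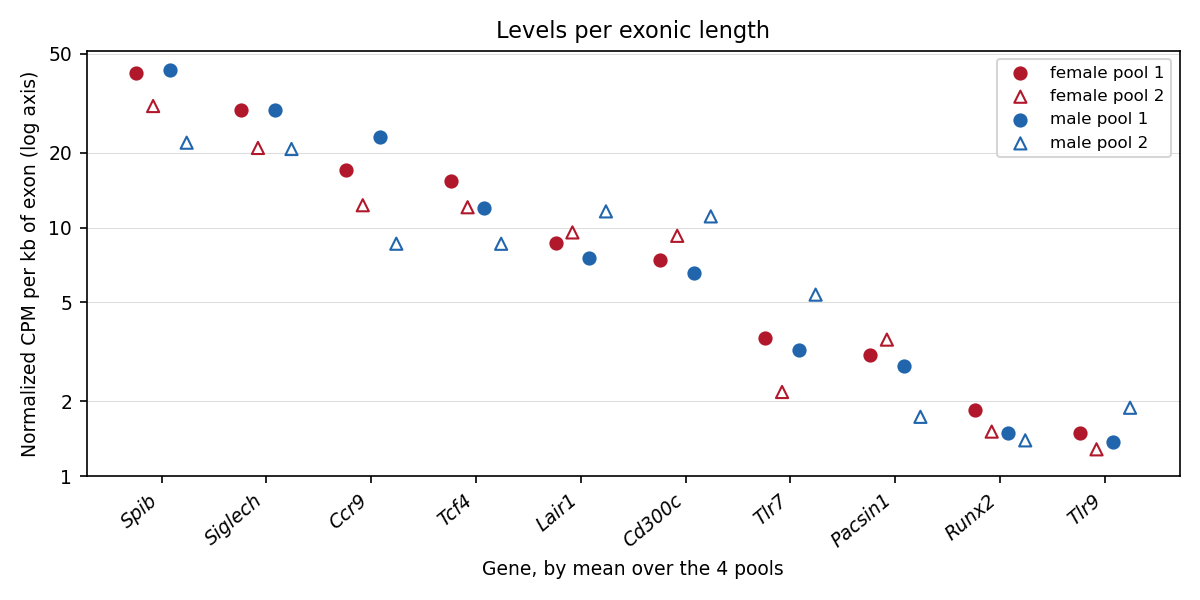
Normalized CPM per kb of annotated exon (vertical axis, log scale) of the member genes, ordered by their mean, in the same 4 pools and marks. Neighbouring genes overlap, apart from the gap between Cd300c and Tlr7.

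Because Tcf4 encodes a factor that binds E-boxes, the promoters of the members are shown with the letters CANNTG in capitals. The sequences are from RefSeq (GRCm38.p6), the 250 bases before the RefSeq start of the gene, 5' to 3' on the strand of the gene. RefSeq starts were not compared with the gene models of NCBIM37, so the 2 may begin at different places. The first 3 belong to members that had lower values in pool 2 of both sexes, the next 2 to members that had higher values there, and Pacsin1 is the member without a match. The promoters of Tlr7 and Tcf4 were not matched.
Siglech (chr7:55767934-55768183, plus strand): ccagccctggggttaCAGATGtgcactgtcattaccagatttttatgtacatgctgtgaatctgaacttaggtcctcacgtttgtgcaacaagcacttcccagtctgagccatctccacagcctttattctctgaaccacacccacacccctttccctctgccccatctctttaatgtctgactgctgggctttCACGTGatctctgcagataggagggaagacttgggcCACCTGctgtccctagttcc
Spib (chr7:44532072-44532321, minus strand): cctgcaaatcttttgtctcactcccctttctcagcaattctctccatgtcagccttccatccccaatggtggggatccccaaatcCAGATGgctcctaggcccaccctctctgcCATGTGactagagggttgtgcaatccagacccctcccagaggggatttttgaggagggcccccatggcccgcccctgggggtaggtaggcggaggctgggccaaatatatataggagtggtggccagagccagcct
Ccr9 (chr9:123766961-123767210, plus strand): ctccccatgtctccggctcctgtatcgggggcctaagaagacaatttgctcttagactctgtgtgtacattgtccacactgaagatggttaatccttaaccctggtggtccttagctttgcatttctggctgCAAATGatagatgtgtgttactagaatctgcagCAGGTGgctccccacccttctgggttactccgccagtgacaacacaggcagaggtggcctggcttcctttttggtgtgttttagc
Lair1 (chr7:4063205-4063454, minus strand): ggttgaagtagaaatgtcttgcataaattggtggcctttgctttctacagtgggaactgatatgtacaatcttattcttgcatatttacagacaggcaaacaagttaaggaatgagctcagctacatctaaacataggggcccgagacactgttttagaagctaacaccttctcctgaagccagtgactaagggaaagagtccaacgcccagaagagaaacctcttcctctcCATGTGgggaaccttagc
Cd300c (chr11:114960508-114960757, minus strand): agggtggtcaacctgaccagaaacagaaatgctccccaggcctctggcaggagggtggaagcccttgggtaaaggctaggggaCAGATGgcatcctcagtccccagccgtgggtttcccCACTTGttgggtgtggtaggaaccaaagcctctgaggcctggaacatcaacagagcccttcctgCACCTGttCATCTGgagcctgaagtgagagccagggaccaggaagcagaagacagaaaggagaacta
Pacsin1 (chr17:27684989-27685238, plus strand): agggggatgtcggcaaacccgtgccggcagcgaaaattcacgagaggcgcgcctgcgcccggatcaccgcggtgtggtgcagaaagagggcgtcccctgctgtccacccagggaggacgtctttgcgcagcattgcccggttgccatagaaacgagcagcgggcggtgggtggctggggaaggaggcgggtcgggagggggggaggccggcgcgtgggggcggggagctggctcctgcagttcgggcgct

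With Runx2 and Tlr9, promoter sequences were searched for 8 members, now over 300 bases that include the first 50 of the gene. CANNTG occurred in 7 of 8, against 72.1% of the 27025 mouse promoters of this length. CACCTG, which is 1 form of CANNTG and was searched on both strands, occurred in 4 of 8 (Siglech, Ccr9, Cd300c and Tlr9) against 20.03% of all promoters. TGTGGT, the core of Runx sites on both strands, occurred in 4 of 8 (Siglech, Runx2, Pacsin1 and Cd300c) against 16.9%. The Ets core GAGGAA, to which Spi-B can bind, occurred in 3 of 8 against 28.3%, and the interferon response element in 1 of 8, Cd300c, against 3.49%. These matches describe letters, and binding was not measured.

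The member genes lie on 6 chromosomes. In NCBIM37, Siglech is at chromosome 7, 63023548 to 63034295, plus strand. Spib (51781365 to 51787441) and Lair1 (3958675 to 4014806) lie on the minus strand of chromosome 7. Tlr9 (106124929 to 106129207) and Ccr9 (123587557 to 123691089) lie on the plus strand of chromosome 9. Pacsin1 is on chromosome 17 from 27792454 to 27848051, plus strand, and Runx2 from 44632936 to 44951746, minus strand. Cd300c is on chromosome 11 from 114817592 to 114821731, minus strand, and Tcf4 on chromosome 18 from 69503800 to 69847621, plus strand. Tlr7 lies on the X chromosome from 163742861 to 163768490, minus strand. Exons of Ccr9 share 269 bases with Gm17200 on the same strand, and on the opposite strand 56 bases with Gm17021 and 22 with Slc6a20a, a gene with 3 to 10 counts per pool. Exons of Runx2 share 519 bases with the antisense gene Gm10497. Runx2 has another annotated entry on the same strand that shares 2532 exonic bases, and the longer entry gave its length. Counts of Gm17200, Gm17021 and Gm10497 were not analysed here, and whether reads were counted by strand is not given. Tcf4 is also an older name of Tcf7l2, and Cd300c of its neighbour Cd300c2. Tcf7l2 has a row of its own in the counts, as has AF251705, the gene that NCBIM37 annotates at the place of Cd300c2 beside Cd300ld.

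Male and female pools were compared first. Between the sexes, 0 of the 10 members passed the threshold, an adjusted p of 0.05, by the quasi-likelihood test of edgeR (Benjamini-Hochberg adjustment), beside 0 of the 10865 genes tested (0%). The lowest adjusted p of any gene in this test was 0.19. The study listed genes higher in males at a false discovery rate under 0.05, among them genes on the Y chromosome. The fit used here called none, so 0 calls among the members do not show equal levels. An unadjusted p under 0.05 was reached by 48 genes in all and 0 members, while DESeq2 called 3 genes and edgeR's exact test 8, again with 0 members. The adjusted p of each member was 1. The log2 fold changes of male over female ran from -0.52 for Pacsin1 to 0.53 for Tlr7, with 5 members above and 5 below 0, and a median of 0.023 against 0.027 over all tested genes.

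The transcription factors come first. Tcf4 had 188 and 148 normalized CPM in females against 147 and 106 in males. Both male pools lay below both female pools, the nearest being male pool 1 and female pool 2. Its log2 fold change was -0.41 (standard error, SE, 0.37), with a 95% interval from -1.29 to 0.47. Spib had 119 and 87.6 normalized CPM in females against 123 and 62.4 in males, so the sexes overlapped, and its log2 fold change was -0.16 (SE 0.43). Runx2, a runt-domain factor that pDCs need to leave the bone marrow, had 16.3 and 13.4 in females against 13.1 and 12.3 in males. It was also lower in both male than in both female pools, with a log2 fold change of -0.22 (SE 0.36).

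Of the surface receptors, Siglech had nearly equal means, in females 85.5 ± 20.9 (SD, n = 2 pools) and in males 85.4 ± 21.7 normalized CPM. Its log2 fold change was -0.0015 (SE 0.36), and the 95% interval from -0.87 to 0.87 leaves room for changes of nearly 2-fold in either direction. Ccr9, the receptor for the thymic chemokine CCL25, had 54.9 and 39.6 normalized CPM in females against 74.8 and 27.7 in males. The male pools gave both the highest and the lowest value, and the log2 fold change was 0.13 (SE 0.50). Leaving out male pool 1 made it -0.79, and leaving out male pool 2 made it 0.66. Thymocyte and T cell genes, with which Ccr9 is shared, summed to 1215 normalized CPM over 12 genes in male pool 1 and to 346 to 449 in the other pools, and their part in the Ccr9 value was not tested. The 10 genes of that list that were tested had log2 fold changes above 0, with a median of 1.38, beside 53.2% of all tested genes above 0, and 0 of them passed. In male pool 2 alone, Lck (50.4 normalized CPM) and Cd3e (7.32) lay below both female pools. Lair1, an inhibitory receptor for collagen, had 32.6 and 36.1 normalized CPM in females against 28.4 and 43.9 in males. Cd300c, a receptor of the CD300 family, had 5.16 and 6.43 in females against 4.54 and 7.70 in males, from 13 to 38 counts. For both receptors the female pools lay between the male pools, and the log2 fold changes were 0.06 (SE 0.34) for Lair1 and 0.05 (SE 0.52) for Cd300c.

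Pacsin1, an adaptor of the cytoskeleton and of endocytosis that pDCs use in TLR responses, had 15.0 and 17.3 normalized CPM in females against 13.5 and 8.47 in males. Both male pools lay below both female pools, at a log2 fold change of -0.52 (SE 0.40), 95% interval from -1.47 to 0.43. In all, 3 of the 10 members, Tcf4, Runx2 and Pacsin1, had sexes that did not overlap, beside 21.2% of all genes tested.

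Tlr7 and Tlr9 encode the endosomal receptors for single-stranded RNA and for CpG DNA. Tlr7 had 14.7 and 8.91 normalized CPM in females against 13.1 and 21.9 in males. Its log2 fold change of 0.53 (SE 0.45) was the highest of the members. Male pool 2 had the highest value, and leaving it out made the log2 fold change 0.13. Tlr9 had 5.16 and 4.45 in females against 4.78 and 6.55 in males, from 9 to 40 counts, with a log2 fold change of 0.20 (SE 0.50). The sexes overlapped for both receptors.

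**Figure D3:**
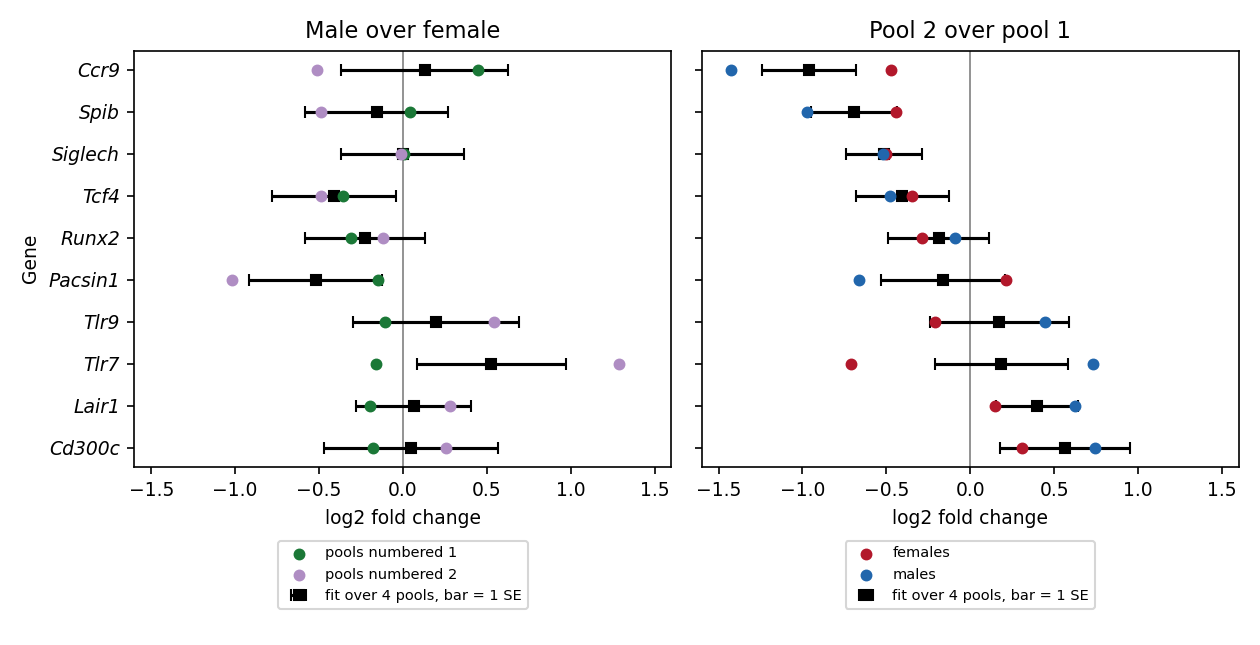
Log2 fold change (horizontal axis) of each member gene (vertical axis) for male over female (left) and pool 2 over pool 1 (right). Black squares are the fit over the 4 pools with bars of 1 standard error, and coloured points are single pools compared within a pool number (left) or within a sex (right). On the left the squares run from -0.52 to 0.53, and on the right from -0.96 for Ccr9 to 0.56 for Cd300c.

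The labels also number the pools within each sex. Those numbers are shared by females and males, and what they stand for is not given. Over all genes tested, 221 of 10865 (2.03%) differed between pool 2 and pool 1 at an adjusted p of 0.05, and 0 of the 10 members did by the quasi-likelihood test of edgeR, the lowest adjusted p being 0.092 for Ccr9. An unadjusted p under 0.05 by the same test was reached by 3 of the 10 members, beside 2571 of the 10865 tested genes in either direction. The 3 members, Ccr9, Spib and Siglech, were all lower in pool 2, as were 9.22% of all tested genes at this level. Their log2 fold changes were -0.96 (SE 0.28) for Ccr9, -0.69 (SE 0.26) for Spib and -0.51 (SE 0.23) for Siglech. DESeq2 called 0 members, beside 651 of the 10865 tested genes. The exact test of edgeR called 1 member, Ccr9, beside 1138 of the 10865.

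Siglech had log2 differences of pool 2 over pool 1 of -0.50 in females and -0.52 in males. For Spib these were -0.44 and -0.97, and for Ccr9 -0.47 and -1.43. Tcf4 had -0.35 and -0.48, and Runx2 -0.29 and -0.092. These 5 members were lower in pool 2 of both sexes, as were 35.0% of all tested genes. Lair1, with 0.15 and 0.62, and Cd300c, with 0.31 and 0.75, were higher in pool 2 of both sexes, as were 31.2% of all tested genes. Pool numbers did not overlap for Siglech, Spib, Ccr9, Lair1 and Cd300c, 5 of 10 members, beside 55.5% of all tested genes. Without female pool 2, the log2 fold changes were -1.21 for Ccr9, -0.93 for Spib and -0.63 for Tcf4. There female pool 1 and male pool 1 were set against male pool 2 alone, which is assumed to vary like the others.

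Genes of other cells also had different values in the same pools. The 8 B cell genes found were lower in pool 2 of both sexes in 8 of 8 cases, and summed to 4477 and 2952 normalized CPM in females against 3691 and 2479 in males. Cd79a and Cd79b, which encode the signalling chains of the B cell receptor, had the highest levels of this list. Of 11 macrophage and monocyte genes, 9 were higher in pool 2 of both sexes, with sums of 2261 and 4830 in females against 1613 and 6545 in males. C1qa, C1qb and C1qc, the chains of complement C1q, were called higher in pool 2 by the quasi-likelihood test of edgeR, with log2 fold changes of 1.97, 1.93 and 1.89 and adjusted p-values of 0.039, 0.045 and 0.044. Lyz2 had the highest level of this list, with a log2 fold change of 1.52 that did not pass. Of 12 mTEC genes, 10 were higher in pool 2 of both sexes, with Spint2, Krt8 and Krt18 the highest, and sums of 441 and 745 in females and 477 and 716 in males. The 10 pDC genes summed to 552 and 433 normalized CPM in females against 522 and 367 in males. Siglech, Tcf4, Spib, Runx2 and Ccr9 were lower in pool 2 of both sexes. So were the B cell genes and most plasma cell, and thymocyte and T cell genes. Of 7 NK cell genes 4 were lower, among them Prf1 and Eomes with 1 to 18 counts per pool. Klrk1, the most abundant NK cell gene, was higher in pool 2 of both sexes, with log2 differences of 0.28 and 0.51. Lair1 and Cd300c were higher in pool 2 of both sexes, like most macrophage, mTEC and conventional dendritic cell genes. Tlr7 and Tlr9, which B cells also use, were lower in female pool 2 and higher in male pool 2 than in pool 1 of the same sex, and Pacsin1 the reverse. The part of these cells in the pDC genes was not tested.

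**Figure D4:**
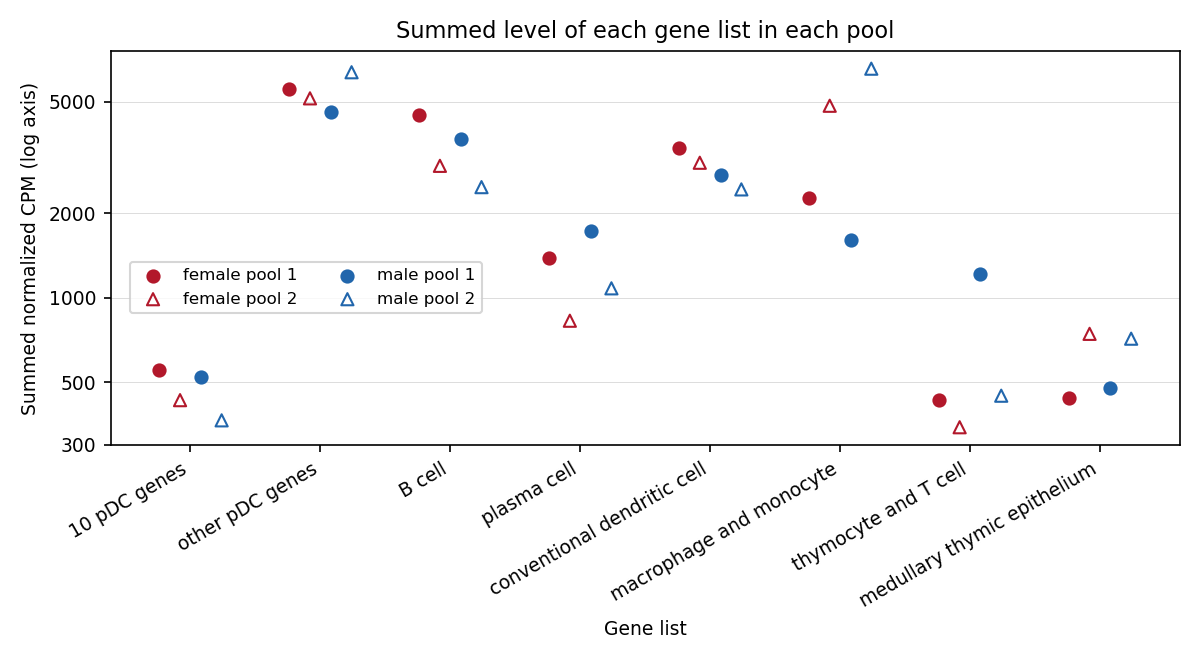
Summed normalized CPM (vertical axis, log scale) of 8 gene lists (horizontal axis) in the 4 pools, marked as before. The 10 pDC genes run from 367 to 552 and are lower in pool 2 of each sex. So are the B cell, plasma cell, conventional dendritic cell, and thymocyte and T cell lists. Ccr7 is the largest value in the conventional dendritic cell sum, with 2312 and 1699 in females and 1935 and 1131 in males. Of the 12 genes of that list, 8 are higher in pool 2 of both sexes. The macrophage and monocyte list and the mTEC list are higher in pool 2 of each sex. The other pDC genes are lower in pool 2 of females and higher in pool 2 of males.

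The remaining lists gave the following. Of 12 conventional dendritic cell genes, 8 were higher and 2 lower in pool 2 of both sexes, and Ccr7, Flt3 and Fscn1 were the most abundant. Batf3, a factor of cross-presenting dendritic cells, was called by the quasi-likelihood test of edgeR, with a log2 fold change of 2.24 for pool 2 over pool 1 (adjusted p = 0.039). Of 7 plasma cell genes, led by Igj, Mzb1 and Xbp1, 4 were lower in pool 2 of both sexes, and of 12 thymocyte and T cell genes, led by Lck, Cd8a and Cd3g, 8 were. Of 7 NK cell genes, led by Klrk1, Nkg7 and Gzma, 4 were lower, with Ncr1 at 0 counts in 3 pools and 3 counts in male pool 1. Of 8 neutrophil genes, led by Cxcr2, S100a9 and S100a8, 3 were higher and 2 lower in pool 2 of both sexes, and of 6 cortical epithelial genes, led by Ctsl, Ly75 and Psmb11, 2 were higher and 2 lower. In these 9 lists of other cells, 0 genes were called between the sexes by the quasi-likelihood test of edgeR. An unadjusted p under 0.05 by the same test was reached by 48 of all 10865 tested genes. Among them were 3 of 7 neutrophil genes tested, 2 of 3 NK cell genes and 2 of 10 thymocyte and T cell genes. The list medians were 1.13, 2.01 and 1.38 on the log2 scale. The NK cell genes were Nkg7 (8.43 and 2.97 normalized CPM in females, 38.5 and 8.47 in males) and Gzma (4.08 and 0, 26.8 and 4.62). Both were high in male pool 1 only, and Klrk1 had a log2 fold change of -0.096. The neutrophil genes were S100a9, S100a8 and Camp, with log2 fold changes of 2.08, 1.99 and 2.02 for male over female. The part of these cells in the sex values of the pDC genes was not tested.

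The other pDC genes differed in direction among themselves. Of 24 further pDC genes, all tested, 0 passed between the sexes (13 above and 11 below 0, median log2 fold change 0.055) and 0 between pool numbers. In pool 2 of both sexes 7 were lower and 8 higher. Ly6d, a surface marker of lymphoid progenitors and pDCs, had 1642 to 2386 normalized CPM over the 4 pools, Plac8 382 to 791 and Ly6c2 392 to 645. From which cells the transcripts of this list came was not tested, so its levels are not a measure of pDCs. Bst2, the tetherin that marks mouse pDCs, had 307 and 387 normalized CPM in females against 251 and 641 in males. Cox6a2 had 31.8 and 49.98 in females against 24.5 and 92.8 in males. Both lay higher in pool 2 of each sex, opposite to Siglech, and neither passed (adjusted p = 0.16 for Bst2 and 0.061 for Cox6a2, the quasi-likelihood test of edgeR). Blnk, an adaptor of the B cell receptor, had 229 normalized CPM in the mean over the 4 pools, Fcrla, an Fc receptor-like protein, 127, and Irf8 and Irf7 537 and 439. Irf8 and Irf7 stand in the following 2 lists as well.

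Among 16 transcription factors of the pDC programme, including Tcf4, Spib and Runx2, 0 passed between the sexes, with a median log2 fold change of -0.18. Id2, an inhibitor of E proteins that opposes E2-2, was the most abundant with 852 and 807 normalized CPM in females against 596 and 1095 in males. Irf8, needed for dendritic cell development, had 405 and 824 in females against 350 and 568 in males. Cbfa2t3, a corepressor that acts with E2-2, was the member of this list called between pool numbers by the quasi-likelihood test of edgeR, with 30.2 and 60.4 normalized CPM in the female and 22.1 and 87.4 in the male pools (log2 fold change 1.52, adjusted p = 0.045). Nfil3, with a mean of 184 normalized CPM, lay above Tcf4, and Ets1, with 92.6, and Id3, another inhibitor of E proteins, with 88.2, lay just below Spib. In pool 2 of both sexes 8 of the 16 were lower and 4 higher.

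Of 36 genes of TLR7 and TLR9 signalling and of type I interferon, 25 were tested, and 0 passed between the sexes or between pool numbers. Between the sexes 10 were above and 15 below 0, with a median log2 fold change of -0.14, and in pool 2 of both sexes 11 were lower and 5 higher. Unc93b1, the chaperone that carries both receptors to endosomes, had 663 and 557 normalized CPM in females against 535 and 331 in males. Hsp90b1, the endoplasmic reticulum chaperone of TLRs, had a mean of 676, Irf5 319, Irak1 158, Lgmn 124 and Cnpy3 113. The interferon alpha genes, which pDCs transcribe on activation, were barely detectable at this depth. Of 11 listed, 6 had 0 counts in all pools, and the highest count of the others was 4, for Ifna4 in female pool 1. Where a pool has a count of 0, the upper limit is 3 counts, or 0.358 to 1.48 normalized CPM, for counting error only. Ifnb1, the interferon beta gene, was counted in every pool, with 77 and 14 counts in females against 78 and 39 in males, or 20.9, 6.93, 9.32 and 15.0 normalized CPM.

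The genes whose pattern over the 4 pools was most like that of Siglech were Nbeal2, Ncl, Chd1, Asxl1 and Ndfip2. Their centred log2 values lay within a root mean square distance of 0.016 to 0.022 of those of Siglech, out of 9556 genes with a mean of at least 5 normalized CPM. The nearest other member was Spib at 0.19, in place 1791, followed by Runx2 at 0.20 and Tcf4 at 0.22, and the farthest was Tlr7 at 0.51. With 4 points per gene such likeness is a description.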

How the data were processed

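RNA of sorted mTECs was sequenced in 2 female and 2 male pools. The authors trimmed reads (Trimmomatic), aligned them to mm9 (TopHat2), and deposited raw counts per gene from HTSeq-count. Gene annotation, strand setting and versions are not given in the sources used here. The 5 rows that name no gene, 66.9% to 70.2% of all counts of a pool, were left out.

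Counts were compared with edgeR 4.0.16 in R 4.3.3: quasi-likelihood test, TMM, filterByExpr (minimum count 10), prior count 0.125, Benjamini-Hochberg adjustment at 0.05 over all 10865 tested genes, two-sided, with sex or pool number as the term. Intervals are 95%. Alternatives were no filter, upper-quartile normalization, scaling by library size only, over 1 CPM in at least 2 pools, DESeq2 1.42.0, edgeR's exact test, the replicate block, and each pool left out. Lengths come from the NCBIM37 annotation. Likeness to Siglech used log2 of normalized CPM plus 1.

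The members, the 12 other lists and the named genes (members, the most abundant and called genes of each list, Ptprc and the 5 most like Siglech) were chosen with earlier results of these data known. Of the genes this rule selects, 1 is not reported here. Other names follow from small counts or were picked after their values were seen (Aire, Epcam, Cd3e, Camp, Klk1, Cox6a2, Bst2, Ifnb1, AF251705). Nothing states that pools came from separate sorts, so p-values measure the spread between pools.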

Additional observations from a re-analysis of the deposited data

Results flagged for a closer look

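Pool 2 and pool 1 differed in opposite directions in females and males for 3 member genes, each with 1 pool per number and sex, so the difference was not tested. For Tlr7 the log2 of pool 2 over pool 1 was -0.71 in females and 0.73 in males, from 54 and 18 counts in females and 110 and 57 in males. For Tlr9 it was -0.21 in females and 0.44 in males, from 19 and 9 counts and 40 and 17 counts. For Pacsin1 it was 0.21 in females and -0.66 in males, from 55 and 35 counts and 113 and 22 counts. The macrophage and monocyte list summed to 1613 and 6545 normalized CPM in male pools 1 and 2 and to 2261 and 4830 in the female pools, and its part in the Tlr7 values was not tested.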

How the results depend on the processing

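Between the sexes, 0 members passed under any of the 11 alternatives. The number of all genes passing, 0 in the fit as reported, was 26 with no filter, 5 with library size only, 3 with DESeq2, 8 with the exact test and 17 with the replicate block, and ran from 0 to 646 (without male pool 1) with a pool left out, with 70 without male pool 2. The median over the members was -0.30 without male pool 1, and 0.039 at most with a pool left out. Members near 0 changed sign: Siglech to 0.0060 with no filter, 0.0087 with DESeq2, 0.27 without female pool 1 and 0.24 without male pool 2; Lair1 and Cd300c to -0.072 and -0.075 with library size only, -0.0072 and -0.11 without female pool 1 and -0.26 and -0.32 without male pool 2. Without the same 2 pools Spib was at 0.085 and 0.25. Ccr9 was at -0.074 without female pool 2 and -0.79 without male pool 1, and Tlr9 at -0.017 without male pool 2. With a pool left out, the ranges were -0.31 to 0.27 for Siglech, -0.75 to 0.25 for Spib, -0.79 to 0.66 for Ccr9, -0.26 to 0.35 for Lair1, -0.32 to 0.42 for Cd300c and -0.017 to 0.41 for Tlr9. Tcf4, Runx2, Pacsin1 and Tlr7 kept their direction in all 11, but ran from -0.69 to -0.19, -0.34 to -0.066, -0.93 to -0.24 and 0.13 to 0.96 with a pool left out.

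Between pool numbers, the 221 genes became 1504 with no filter, 764 with library size only, 651 with DESeq2, 1138 with the exact test and 807 with the replicate block, and 174 to 2620 with a pool left out (2620 without female pool 2 and 411 without female pool 1). Among the alternatives that kept all 4 pools, members passing were 1 (Ccr9) with library size only (adjusted p = 0.030), no filter (0.0079) and the exact test (0.036). Calls of members with a pool left out are not given, since 1 pool number is then held by 1 pool. The members' median of -0.17 moved to -0.47 (library size only), -0.24 (no filter), -0.20 (over 1 CPM in at least 2 pools), -0.14 (DESeq2) and -0.20 (replicate block), and ran from -0.35 to -0.070 with a pool left out. Library size only also moved the median of all genes from -0.030 to -0.35; there Tlr7 was at -0.20 and Tlr9 at -0.19. Without male pool 2, Pacsin1, Tlr7 and Tlr9 were at 0.29, -0.64 and -0.15, with ranges of -0.71 to 0.29, -0.64 to 0.70 and -0.15 to 0.43 with a pool left out. The cause was not tested. Pool differences correlated at 0.51 over genes between the sexes, but there are only 2 pairs. Nothing given ties a number to an animal or a day, so whether the numbers pair the pools is not known. The sex fit as reported did not treat them as pairs, and the replicate block did. Cd300c and Tlr9, with 9 to 40 counts per pool, had the fewest counts of the members.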

Other observations

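Genes related to the members were looked at after the values were seen. Siglecg, an inhibitory receptor of B cells and a relative of Siglech, had 170 and 118 normalized CPM in females against 138 and 77.0 in males, above Siglech in each pool. Cd22, a further sialic acid-binding receptor of B cells, had 110 and 74.2 in females against 102 and 49.7 in males. Cd33 had 13.6 and 17.8 in females against 14.6 and 19.6 in males, and Siglec1, a receptor of macrophages, 4.35 and 6.93 against 3.35 and 2.31. Siglecg and Cd22 were lower in pool 2 of both sexes like Siglech, Cd33 was higher in both, and Siglec1 was higher in females and lower in males.

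AF251705, in the place of Cd300c2, had 33.7 and 52.5 normalized CPM in females against 21.4 and 87.4 in males. Like its neighbour Cd300c it was higher in pool 2 of both sexes, and in each pool it had more counts than Cd300c.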
